A study of Mus musculus with 11 samples.

Results

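*Mup4* and *Mup5* are the 2 major urinary protein genes described here, chosen by name from the 19058 genes of a count table of NOD mouse lacrimal glands. RNA from the whole lacrimal gland of 11 male NOD mice was sequenced, with 1 library per mouse, to ask which genes depend on TLR7 and on the type I interferon receptor in this gland. The groups were 3 WT mice, 5 *Tlr7* KO mice that carry a 2 base pair deletion made by CRISPR/Cas9, and 3 *Ifnar1* KO mice of the *Ifnar1* em16 line. The WT and *Tlr7* KO mice were 20 to 22 weeks old, and the age of the *Ifnar1* KO mice is not given in the sources used here. All mice shared the NOD background, in which males develop lacrimal gland inflammation, and each KO group came from a single mutant line. The authors left out 1 more *Ifnar1* KO mouse after inspecting its gland inflammation and its place in a principal component plot, so the 3 used here are a selected set.

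Major urinary proteins are small secreted proteins of the lipocalin family, with a barrel-shaped pocket that holds volatile molecules. Mice use them, with the ligands they carry, as scent signals. The best known members are made in the liver under growth hormone and androgen control and leave the body in urine, while *Mup4* transcripts have been described in lacrimal and nasal glands and *Mup5* transcripts in salivary and lacrimal glands. The genes lie in a cluster on chromosome 4 and resemble each other closely, so that a short read can match several of them.

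*Mup4* (ENSMUSG00000041333) lies at chr4:59956804-59960710 on the minus strand of GRCm38, and *Mup5* (ENSMUSG00000058523) at chr4:61831319-61835233 on the same strand. The GENCODE M21 annotation gives 1 transcript of 7 exons for each gene, with 922 bases for *Mup4* and 925 for *Mup5*. Some 1871 kilobases and 17 other protein-coding *Mup* genes separate them, and *Mup6* is the next *Mup* gene beside *Mup4*, with 3584 bases between the GENCODE gene models. Over their coding sequences, 537 and 543 bases long, *Mup4* and *Mup5* were 92.1% identical, with 37 mismatches and 6 gap positions. The 90 coding bases with the most mismatches, 11 of them, are shown because they are where reads tell the genes apart best. Each is written 5′ to 3′ on the coding strand, from coding base 370 in *Mup4* and 376 in *Mup5*, with the differing bases in capitals.
Mup4: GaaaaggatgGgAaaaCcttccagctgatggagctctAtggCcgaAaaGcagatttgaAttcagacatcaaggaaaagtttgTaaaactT
Mup5: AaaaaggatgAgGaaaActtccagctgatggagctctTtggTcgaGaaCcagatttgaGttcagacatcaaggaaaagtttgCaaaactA

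Of the 892 stretches of 31 bases in the *Mup4* transcript, 553 occur in no other *Mup* gene, and of the 895 in *Mup5*, 573 do not. The pair shares 213 such stretches. Most of each reference transcript can therefore be assigned to its gene, and the remainder, 38.0% for *Mup4* and 36.0% for *Mup5*, cannot be assigned from a perfect match alone. The NOD sequences of these genes were not examined. The part of misassigned *Mup4* reads in the *Mup5* counts was not tested. *Mup1*, *Mup10* and *Mup14* shared 70.2%, 83.2% and 89.2% of their stretches with other *Mup* genes, so their counts are uncertain.

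The start of *Mup4* is shown beside that of *Mup6*, its neighbour, because the 2 genes behaved differently across the groups. Both sequences are the 100 bases that end with the motif TATAAA, in capitals, and come from the RefSeq promoter table on GRCm38.p6, at chr4:59960689-59960788 on the minus strand for *Mup4* and chr4:60003360-60003459 on the plus strand for *Mup6*.
Mup4: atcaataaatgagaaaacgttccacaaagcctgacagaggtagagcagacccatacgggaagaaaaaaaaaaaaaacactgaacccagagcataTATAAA
Mup6: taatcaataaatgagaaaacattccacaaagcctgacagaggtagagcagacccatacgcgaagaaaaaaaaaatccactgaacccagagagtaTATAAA

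TATAAA began 27 bases before the RefSeq start site in both genes. The whole 300-base promoters of *Mup4* and *Mup6*, from 250 bases before the start site to 50 after it, were 91.7% identical. Of 32851 promoters of this length, 13.6% held TATAAA on either strand, as did 2 of the 14 *Mup* promoters in the table, those of *Mup4* and *Mup6*. TTCNNNGAA, the core of a STAT site, was in 8.30% of all promoters and in none of the 14. The GENCODE model of *Mup4* begins 43 bases upstream of the RefSeq start site, so the *Mup4* TATAAA lies inside that model. The model of *Mup6* begins 39187 bases upstream of its RefSeq start site. The whole *Mup6* sequence shown thus lies inside the GENCODE gene model, far from its edge nearest *Mup4*. No *Mup5* promoter is in the table used here.

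*Mup4* was among the most abundant transcripts of every gland. It ranked between 6th and 9th of all genes in each mouse. It was the only *Mup* gene among the 10 most abundant genes, 8 of which were secretoglobins, the family of androgen-binding protein subunits. In the WT mice it took 4.52%, 2.93% and 3.65% of all gene counts, from 926602, 796402 and 901096 counts. In the *Tlr7* KO mice it took 4.40%, 4.29%, 4.44%, 4.07% and 3.43%, from 1229891, 1069918, 1280010, 1011549 and 945791 counts. In the *Ifnar1* KO mice it took 4.44%, 5.41% and 3.84%, from 1191467, 1449284 and 979576 counts. The shares of the 3 groups overlapped, with WT 2 the lowest mouse and *Ifnar1* KO 2 the highest. Counting error was far smaller than this spread, since the exact 95% binomial interval of the lowest share ran from 2.92% to 2.94%.

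*Mup5* was a minor transcript by comparison, and its spread between mice was wide. The WT mice had 132, 1525 and 262 counts of it. The *Tlr7* KO mice had 299, 297, 310, 194 and 304 counts, and the *Ifnar1* KO mice had 67, 27 and 274. WT 2 stood far above every other mouse, *Ifnar1* KO 1 and 2 stood below every other mouse, and the 5 *Tlr7* KO mice lay close together. As CPM, the count relative to a library total set equal for every mouse, *Mup5* before any scaling factor was at 6.44, 56.1 and 10.6 in WT, 7.80 to 11.9 in *Tlr7* KO, and 2.50, 1.01 and 10.7 in *Ifnar1* KO. *Ifnar1* KO 3 thus fell inside the range of the *Tlr7* KO mice.

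**Figure D1:**
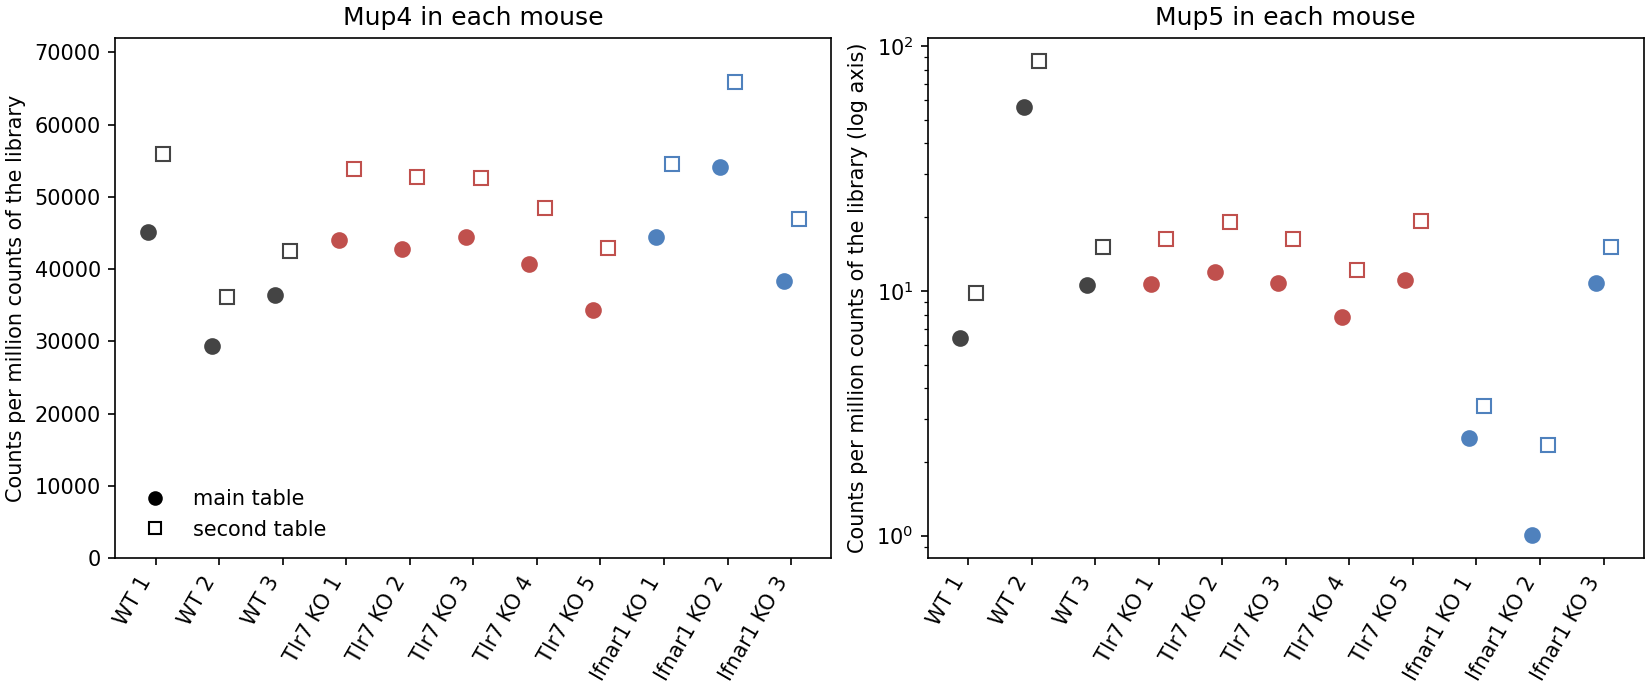
*Mup4* (left, linear axis) and *Mup5* (right, log axis) in each of 11 mice, as unscaled CPM, in the main table (filled circles) and the second table (open squares), with WT in grey, *Tlr7* KO in red and *Ifnar1* KO in blue. WT 2 is the highest mouse for *Mup5* and the lowest for *Mup4* in both tables, and *Ifnar1* KO 1 and 2 are the lowest for *Mup5*.

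The second deposited table, counted separately by the authors, showed the same outlying mice. In it WT 2 had 1381 *Mup5* counts, against 120 and 227 in the other WT mice, 172 to 289 in *Tlr7* KO, and 53, 36 and 227 in *Ifnar1* KO. *Mup4* took 5.59%, 3.61% and 4.26% of the counts of this table in WT, 4.29% to 5.39% in *Tlr7* KO and 5.45%, 6.59% and 4.70% in *Ifnar1* KO.

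Because the transcripts are nearly equal in length, their counts can be compared per base. Per base of transcript, *Mup4* had between 524 times (WT 2) and 53852 times (*Ifnar1* KO 2) the counts of *Mup5*. It had 7043 times in WT 1 and 3450 times in WT 3, 3121 to 5231 times in the *Tlr7* KO mice, and 17841 and 3587 times in *Ifnar1* KO 1 and 3. The ratio of the genes within a library does not depend on how libraries are scaled. The mean log2 ratio of *Mup5* to *Mup4* counts was -11.18 in WT, -11.96 in *Tlr7* KO and -13.88 in *Ifnar1* KO. None of the 3 differences passed a two-sided exact permutation test, with p = 0.482 for WT against *Tlr7* KO, 0.2 for WT against *Ifnar1* KO and 0.0893 for *Tlr7* KO against *Ifnar1* KO (adjusted p = 0.482, 0.300 and 0.268 over the 3 tests). With 3 mice against 5 this test can reach 0.0179, and with 3 against 3 only 0.1.

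The shares of all counts were compared in the same way, with adjustment over 6 tests. The mean *Mup4* share was 3.70% ± 0.795 in WT (SD, n = 3), 4.13% ± 0.414 in *Tlr7* KO (n = 5) and 4.56% ± 0.797 in *Ifnar1* KO (n = 3), and the exact permutation p was 0.375, 0.300 and 0.375 for WT against *Tlr7* KO, WT against *Ifnar1* KO and *Tlr7* KO against *Ifnar1* KO. The mean *Mup5* share was 0.00244% ± 0.00276 in WT (SD, n = 3), 0.00104% ± 0.000155 in *Tlr7* KO (n = 5) and 0.000474% ± 0.000523 in *Ifnar1* KO (n = 3), with an exact permutation p of 0.357, 0.300 and 0.0536 in the same order. After adjustment the smallest p of the 6 was 0.321. Of the *Mup5* shares, the SD exceeded the mean in WT and in *Ifnar1* KO.

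*Mup4* compared differently between the groups once libraries were scaled on the bulk of genes. The 10 most abundant genes, *Mup4* among them, took 54.0% to 65.9% of the counts of a mouse. TMM scaling, which sets libraries to a common level over the bulk of genes, gave factors of 1.43, 0.873 and 1.48 for WT 1, 2 and 3, of 0.687 to 0.977 for *Tlr7* KO and of 0.935 to 1.09 for *Ifnar1* KO. After this scaling *Mup4* was at 31700.1, 33596 and 24633 CPM in WT. It was at 47073, 46527, 48629.9, 41666 and 49951 CPM in *Tlr7* KO, and at 40565, 54161 and 41027 CPM in *Ifnar1* KO. Every WT mouse lay below every KO mouse on this scale, and the KO groups overlapped.

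**Figure D2:**
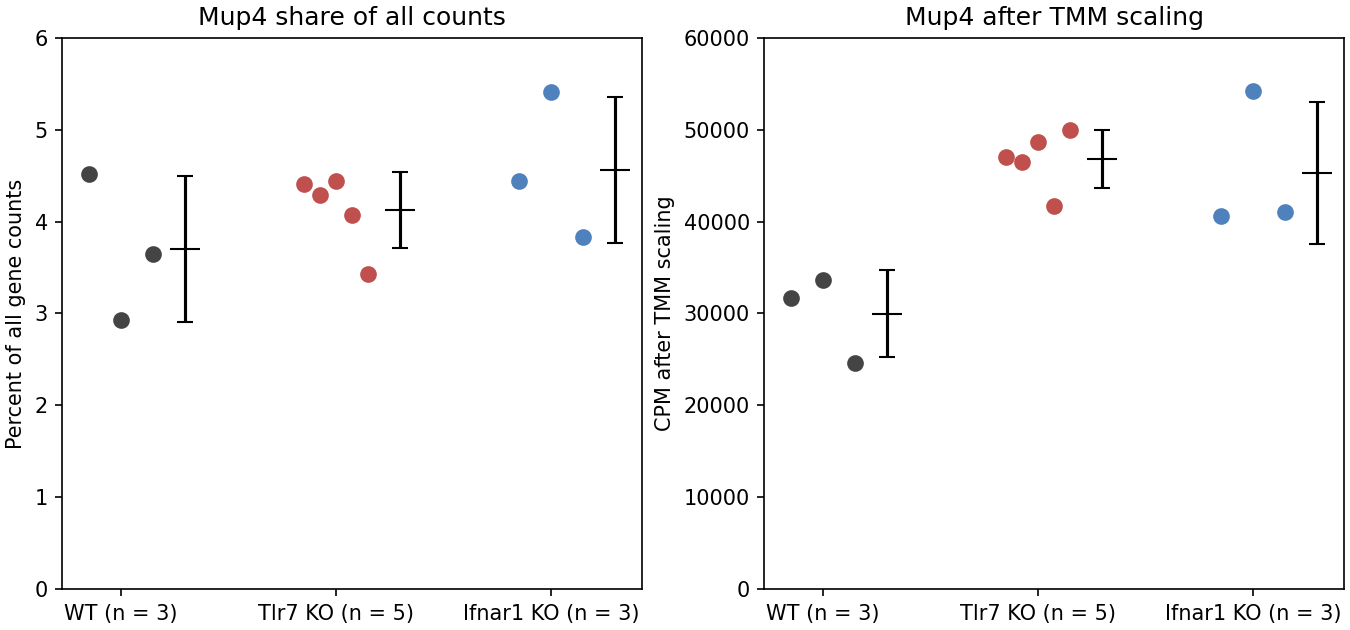
*Mup4* in each mouse as percent of all gene counts (left) and as CPM after TMM scaling (right), with the group mean and SD as a bar beside the points (WT n = 3, *Tlr7* KO n = 5, *Ifnar1* KO n = 3). The groups overlap as shares, and the 3 WT mice lie below all 8 KO mice after scaling.

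With edgeR's quasi-likelihood test on this scale, *Mup4* was 1.56-fold higher in *Tlr7* KO than in WT, a log2 fold change of 0.64 (SE 0.218, 95% interval 0.15 to 1.13, adjusted p = 0.0489). Of the 13937 genes tested, 32.8% passed the same threshold of 0.05 in this comparison, so *Mup4* was 1 of many and stood just inside it. The call was lost under RLE scaling (adjusted p = 0.0584) and in the second table (adjusted p = 0.0882), and with library sizes alone the log2 fold change was 0.16 (adjusted p = 0.365), while the median of all genes tested moved to -0.54. Leaving out any single mouse except WT 2 also lost the call, and without WT 2 *Mup4* had a log2 fold change of 0.73 (adjusted p = 0.0059). Over the alternatives the adjusted p for *Mup4* ran from 2.80e-06, with DESeq2, to 0.441, with a replicate block.

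In *Ifnar1* KO, *Mup4* was 1.49-fold the WT level, a log2 fold change of 0.57 (SE 0.322, 95% interval -0.18 to 1.33) that did not pass edgeR's quasi-likelihood test (adjusted p = 0.232), in a comparison where 19.2% of genes did. DESeq2 (adjusted p = 0.0152) and a single edgeR fit of all 11 mice (adjusted p = 0.0492) called it. The *Ifnar1* KO and *Tlr7* KO groups differed for *Mup4* by a log2 fold change of -0.05, with a 95% interval of -0.33 to 0.23 (adjusted p = 0.876, edgeR), in a comparison where 1.79% of genes passed. Both comparisons with WT used the same 3 WT mice.

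The size of the *Mup5* differences moved with single mice, and their direction against WT in *Tlr7* KO did too. After TMM scaling it was at 4.52, 64.3 and 7.16 CPM in WT, at 11.4, 12.9, 11.8, 7.99 and 16.1 CPM in *Tlr7* KO and at 2.28, 1.01 and 11.5 CPM in *Ifnar1* KO. Against WT, the log2 fold change in *Tlr7* KO was -1.06 (SE 0.706, adjusted p = 0.272, edgeR). Without WT 2 the direction turned, and *Mup5* was 2.04-fold higher in *Tlr7* KO, a log2 fold change of 1.03 (SE 0.261, adjusted p = 0.0112). Each of the 5 *Tlr7* KO mice was above WT 1 and WT 3 on this scale, and all 5 were below WT 2.

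In *Ifnar1* KO the log2 fold change of *Mup5* against WT was -2.36 (SE 1.195, adjusted p = 0.190, edgeR), and it ranged from -3.95 without *Ifnar1* KO 3 (adjusted p = 0.133) to -0.28 without WT 2 (adjusted p = 0.830). Against *Tlr7* KO it was -1.31 (SE 0.581, unadjusted p = 0.0467, adjusted p = 0.299). Without *Ifnar1* KO 3, the mouse inside the *Tlr7* KO range, this became -2.86 (SE 0.342, adjusted p = 0.0109). The low level in *Ifnar1* KO was thus that of 2 of 3 mice.

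**Figure D3:**
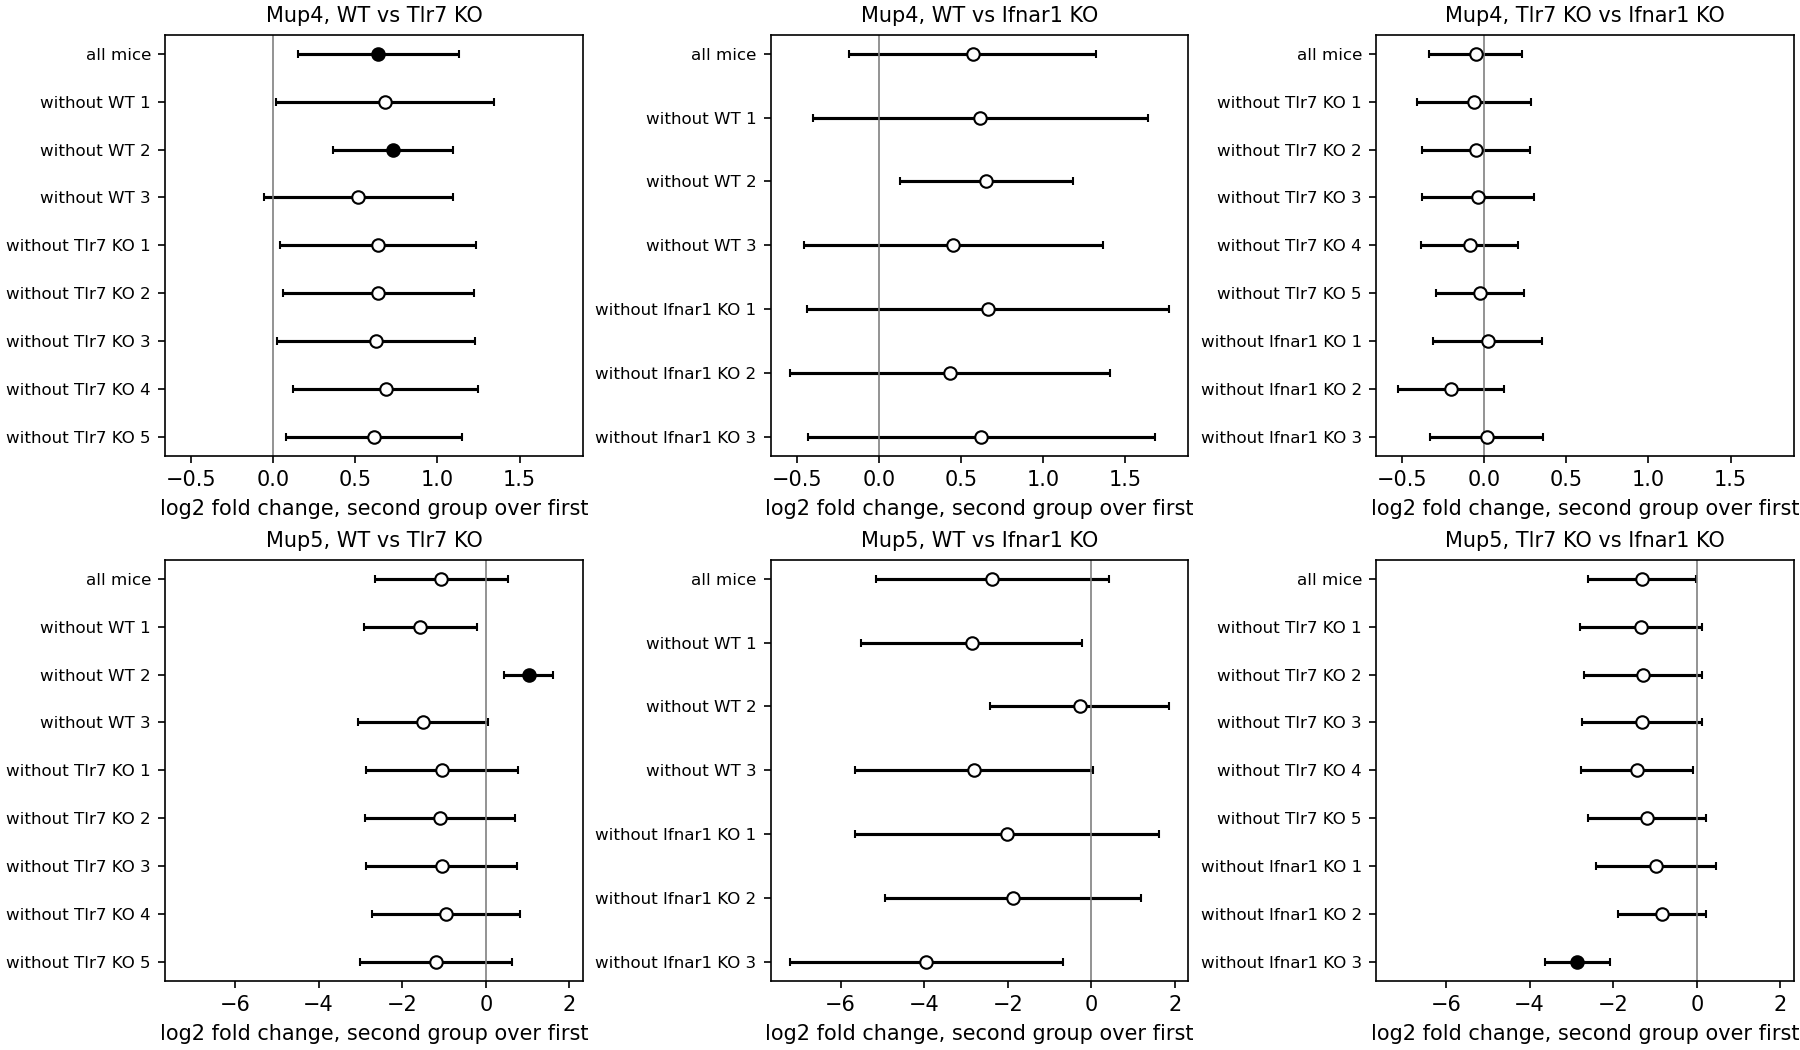
Log2 fold change of *Mup4* (top) and *Mup5* (bottom) in each comparison, second-named group over the first, with all mice and with each mouse left out; bars are 95% intervals from edgeR and filled points have an adjusted p under 0.05. The point estimate for *Mup4* against WT stays above 0 throughout, from 0.52 to 0.73 in *Tlr7* KO with a mouse left out, whereas *Mup5* in *Tlr7* KO turns from -1.06 to 1.03 without WT 2.

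Markers of other tissue were uneven between libraries and are given beside these values. Salivary gland genes, 11 of 12 of which are in the table, summed to 3214 CPM in WT 3, 2809 CPM in *Ifnar1* KO 2 and 293 CPM in *Ifnar1* KO 1, against 38.2 to 73.8 CPM in the other 8 mice. Muscle genes (5 of 5) summed to 351 CPM in WT 1, 253 CPM in WT 2 and 248 CPM in *Tlr7* KO 4, and to at most 9.87 CPM elsewhere. WT 2, the mouse with the most *Mup5*, was therefore not one with high salivary gland genes, and the mice with the least *Mup5*, *Ifnar1* KO 1 and 2, were, while WT 3 had the highest salivary sum and 7.16 CPM of *Mup5*, between WT 1 and WT 2. *Bpifa2*, *Smr3a* and *Amy1*, which define the salivary list, had at least 6, 2 and 6 counts in every mouse and reached 69174, 25226 and 18578, whereas *Dcpp1* and *Dcpp2* were at 0 in some mice. The part of these tissues in the *Mup5* values was not tested.

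The gland itself was represented in every library. The 20 gland epithelial genes summed to 2418 to 3965 CPM in WT, 2871 to 3082 CPM in *Tlr7* KO and 2816 to 3067 CPM in *Ifnar1* KO. B cell genes, which mark the lymphocytes of inflamed glands, summed to 290, 83.0 and 257 CPM in WT 1, 2 and 3, to 6.65 to 52.9 CPM in *Tlr7* KO and to 2.64 to 21.0 CPM in *Ifnar1* KO. The WT mice, lowest in *Mup4* after scaling, were thus the highest in B cell genes. Other immune cell lists did not part every WT mouse from every KO mouse. T cell genes summed to 83.5 and 63.5 CPM in WT 1 and 3. Their medians were 11.9 CPM in *Tlr7* KO and 5.21 CPM in *Ifnar1* KO. Of 9 T cell genes, 7 were called lower in *Tlr7* KO than in WT and 8 in *Ifnar1* KO. Of all genes, 32.8% and 19.2% were called there in either direction. The overlap came from WT 2, with 26.5 CPM of T cell genes against 33.2 CPM in *Tlr7* KO 2. Myeloid genes summed to 181 and 186 CPM in these 2 mice, and to 328 and 237 CPM in WT 1 and 3. Plasma cell genes were highest in *Ifnar1* KO 2, at 542 CPM. The part of these immune cell genes in the *Mup4* values was not tested. In a whole gland, fewer cells of a type and less RNA per cell cannot be told apart. Scaled on the gland epithelial genes alone, the log2 fold change of *Mup4* in *Tlr7* KO was 0.71 (adjusted p = 0.0681, edgeR). Liver genes, which would accompany *Mup* transcripts made in the liver, summed to 1.38 to 6.31 CPM over all mice, with 5 of 10 in the table and *Alb* and the apolipoprotein genes not among them. The targeted genes did not separate the KO groups, since *Tlr7* had 36 to 99 counts in WT, 12 to 25 in *Tlr7* KO and 6 to 22 in *Ifnar1* KO, and *Ifnar1* was at 10.5 to 15.1, 8.34 to 11.2 and 8.34 to 9.63 CPM. A 2 base pair deletion need not remove a transcript.

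Only *Mup4*, *Mup5* and *Mup6* of the family had more than 3 counts in any mouse in both tables. *Mup6* had 134, 215 and 282 counts in WT, 175, 185 and 189 in *Ifnar1* KO, and 1451, 1109, 1592, 1341 and 923 in *Tlr7* KO. The WT and *Ifnar1* KO mice overlapped and all 5 *Tlr7* KO mice were far above both. The *Mup6* log2 fold change was 2.91 in *Tlr7* KO (SE 0.205, adjusted p = 0.000186, edgeR) and -0.06 in *Ifnar1* KO (SE 0.259, adjusted p = 0.897) against WT, and -2.96 in *Ifnar1* KO against *Tlr7* KO (SE 0.119, adjusted p = 2.45e-06). For *Mup4* the log2 fold change between the same KO groups was -0.05. *Mup6* shares 94 of its 969 stretches of 31 bases with *Mup4*, and its log2 fold change in *Tlr7* KO was 2.84 in the second table and 2.47 with library sizes alone. With a replicate block it was 2.98 (adjusted p = 0.0633, edgeR).

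**Figure D4:**
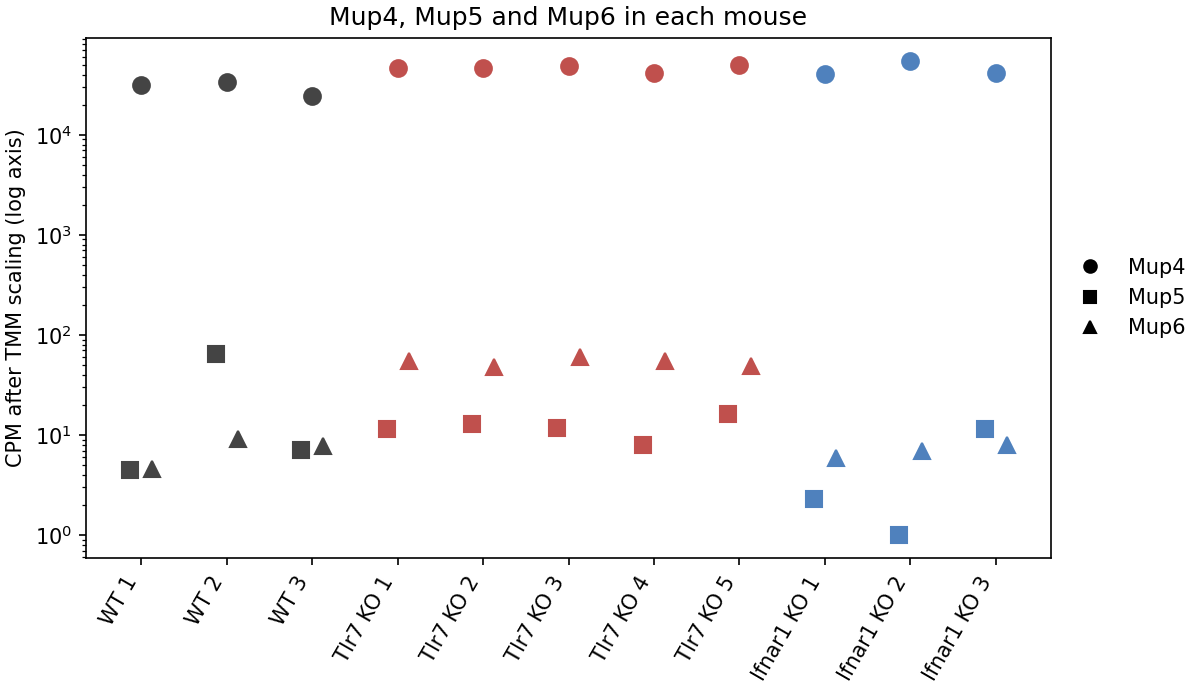
*Mup4* (circles), *Mup5* (squares) and *Mup6* (triangles) in each mouse as CPM after TMM scaling, on a log axis, with WT in grey, *Tlr7* KO in red and *Ifnar1* KO in blue. *Mup6* is at 48.2 to 60.5 CPM in the *Tlr7* KO mice and at 4.58 to 9.07 CPM in the other 6, a split that neither *Mup4* nor *Mup5* shows.

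The other *Mup* genes were at the edge of detection. *Mup1* had 14 to 68 counts, *Mup10* 6 to 47 and *Mup14* 16 to 50 in the main table, and at most 1 count in any mouse in the second table. *Mup3* and *Mup9* reached 6 counts and *Mup13* 4. Of 20 other *Mup* genes listed, 8 were in the main table and 4 were tested, and these 4 (*Mup1*, *Mup6*, *Mup10* and *Mup14*) were called higher in *Tlr7* KO than in WT, where 32.8% of all genes were called, and 0 in *Ifnar1* KO, where 19.2% were. With library sizes alone 1 of the 4, *Mup6*, was called higher, without WT 3, 2 of the 4 were, and without WT 2, 3. In the *Ifnar1* KO comparison none of the 4 had an unadjusted p under 0.05.

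Other secreted products of the gland give a frame for the members. Of 6 tested lipocalins outside the *Mup* family, 4 were called higher and 1 lower in *Tlr7* KO than in WT (median log2 fold change 0.76, against -0.04 over all genes), and 0 higher and 2 lower in *Ifnar1* KO (median -0.09, against -0.02). Of all genes, 32.8% and 19.2% were called in these comparisons. *Obp1a*, an odorant-binding protein, went from 4458 ± 2685 CPM in WT (SD, n = 3) to 16777 ± 4656 in *Tlr7* KO (n = 5) and was at 3598 ± 1441 in *Ifnar1* KO (n = 3). Its log2 fold change was 1.91 in *Tlr7* KO (SE 0.410, adjusted p = 0.00849, edgeR). *Lcn11* and *Obp1b* had log2 fold changes of 0.83 and 0.70 there (adjusted p = 0.0116 and 0.0464), and *Lcn3*, named after its values were seen, of 1.59 (adjusted p = 0.0290). *Apod*, an apolipoprotein of this family, fell by 0.45 on the log2 scale in *Tlr7* KO (adjusted p = 0.00835) and by 0.89 in *Ifnar1* KO (adjusted p = 0.0207), where *Lcn2*, also named after its values were seen, fell by 1.56 (adjusted p = 0.0338). With library sizes alone, the calls in *Tlr7* KO were 1 higher, *Obp1a*, and 2 lower, *Apod* and *Lcn2*. Without WT 3 both calls in *Ifnar1* KO were lost and the median there turned to 0.38. That median was -0.35 without WT 2 and 0.07 when scaled on the gland epithelial genes.

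Exocrine gland secreted peptides, tear and saliva peptides that include pheromones, were called higher in *Tlr7* KO for 8 of 13 tested genes and lower for 1 (median 1.11), where 32.8% of all genes were called in either direction. In *Ifnar1* KO 4 were higher, *Esp1*, *Esp3*, *Esp24* and *Esp36*, and 1 lower, *Esp23* (median 0.80), against 19.2% of all genes. The last 3 were named after their values were seen. Without WT 3 the calls in *Ifnar1* KO became 1 higher and 0 lower, and without WT 2, 10 and 1. In *Tlr7* KO the calls became 6 higher and 0 lower without WT 3, and 11 and 1 without WT 2 (median 1.68). *Esp1*, the male tear pheromone, had log2 fold changes of 3.65 and 3.90 (SE 0.394 and 0.833, adjusted p = 0.000775 and 0.0259) and *Esp3* of 2.04 and 1.91 (adjusted p = 0.000151 and 0.0207). The 3 most abundant, *Esp6*, *Esp16* and *Esp15*, had log2 fold changes in *Tlr7* KO of 0.47, 0.98 and 1.0 (adjusted p = 0.189, 0.0137 and 0.00389).

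The hormone pathway that controls *Mup* genes in liver was examined as a list of 21 genes, 18 of them tested. No member was called higher in either KO group, and 4 were called lower in each (medians -0.23 and -0.25), in comparisons where 32.8% and 19.2% of all genes were called, so the count is no result about the list. They were *Jak2*, *Socs2*, *Socs3* and *Stat5b* in *Tlr7* KO and *Jak2*, *Socs3*, *Bcl6* and *Cebpa* in *Ifnar1* KO, of which *Socs3* and *Cebpa* were named after their values were seen. *Jak2*, the kinase bound to the growth hormone receptor, had log2 fold changes of -1.11 and -1.38 (adjusted p = 0.00437 and 0.0230), and *Socs2*, a feedback inhibitor, of -0.97 and -1.15 (adjusted p = 0.00702 and 0.0597). *Stat5b*, the transcription factor downstream of it, had -0.32 and -0.18 (adjusted p = 0.0412 and 0.418). *Bcl6*, a repressor, had log2 fold changes of 0.41 in *Tlr7* KO and -2.40 in *Ifnar1* KO (adjusted p = 0.122 and 0.00789). The growth hormone receptor gene *Ghr* did not pass in either comparison, with log2 fold changes of 0.25 and 0.37 (adjusted p = 0.202 and 0.214). Without WT 2 it was called higher in both KO groups, at 0.50 and 0.60. In the list there were then 3 higher and 6 lower in *Tlr7* KO and 3 higher and 5 lower in *Ifnar1* KO. Without WT 3 there were 0 higher and 2 and 1 lower. With library sizes alone there were 0 higher and 7 and 2 lower, with medians of -0.75 and -0.56, against -0.54 and -0.31 over all genes.

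The genes whose pattern over the 11 mice was most like that of each member were found by Pearson's r of log2 CPM, among the 5050 tested genes that averaged 10 CPM or more. The mice share groups and scaling, so these values are a description. For *Mup4* they were *Scgb2b19* (r = 0.968), *Car5b* (0.953), *Mpi* (0.949), *Scgb2b12* (0.949) and *Sgpp1* (0.947). *Scgb2b19* was at 57.1 to 222 CPM in WT, 1361 to 2023 in *Tlr7* KO, and 628, 1903 and 767 in *Ifnar1* KO, and its r with *Mup4* was 0.917 after group means were subtracted, while the other 4 fell to between 0.763 and 0.831.

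For *Mup5* they were *Rpl35* (0.952), *Ndufb4c* (0.902), *Cop1* (0.901), *Tnfsf12* (0.897) and *Hint1* (0.892). *Rpl35*, a ribosomal protein gene, spanned only 96.7 to 163 CPM, with WT 2 the highest and *Ifnar1* KO 1 and 2 the lowest, in the order of *Mup5* at both ends. Over the 10 mice without WT 2, a check chosen after the values were seen that also used log2(CPM + 0.1) in place of a prior count of 2, r with *Mup5* was 0.955 for *Rpl35* and 0.811 to 0.834 for the other 4. *Mup4* and *Mup5* themselves had an r of -0.18, of 0.0161 after group means were subtracted, and of -0.0027 over the 10 mice without WT 2 in the same check.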

How the data were processed

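Libraries were run by the authors on a HiSeq instrument, demultiplexed with bcl2fastq and processed in bcbio 1.0.8. The estimated counts of the main table were made by the authors with salmon 0.9.1 and tximport on Ensembl release 97, and were deposited as whole numbers. That table is named as normalized, but its totals per mouse, 20512315 to 27174764 in WT, 24857275 to 28814250 in *Tlr7* KO and 25542645 to 26845375 in *Ifnar1* KO, differ as unscaled counts do, so it was used as counts. The second deposited table holds whole-number counts with totals of 12233586 to 16621073. Reads were aligned by the authors with HISAT2 2.1.0 to mm10, and the counter of that table is not given in the sources used here. A further column of the main table, 1 in number, belongs to no sample and was not used.

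Genes whose WT counts summed to 30 or more were tested with edgeR 4.0.16 (TMM, quasi-likelihood test, R 4.3.3) in separate fits of each pair of groups, with Benjamini-Hochberg adjustment over all 13937. A call is an adjusted p under 0.05. This filter on WT counts can leave out genes present only in KO mice. CPM were computed with the TMM factors, and log2 CPM with a prior count of 2. Shares and ratios were compared by two-sided exact permutation tests. The fits were tested on simulated data. Alternatives were RLE factors, library size only, a size factor from gland epithelial genes, DESeq2 1.42.0, filterByExpr, no filter, all mice in 1 fit, a replicate block, the second table, each member as a percentage of the summed counts without it and without the 10 most abundant genes, and each mouse left out. Intervals from counts cover counting error only, and p-values set a difference between groups against the spread between these mice.

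Sequences were read with Biopython from GENCODE M21 transcripts and the RefSeq promoter table, and motifs were searched on both strands. Genes were matched by Ensembl identifier. The members and gene lists were chosen with earlier results of these data known. Named genes are *Mup4* and *Mup5*, other *Mup* genes with more than 3 counts in a mouse, the 3 most abundant and the 2 with the smallest adjusted p against WT of each further list, *Ghr* and *Stat5b* of the hormone list, and the 5 genes most like each member. A further gene that this rule names in the hormone list is not reported here.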

Additional observations from a re-analysis of the deposited data

Results flagged for a closer look

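*Mup6* differed between the KO groups in a direct test. Its log2 fold change in *Ifnar1* KO against *Tlr7* KO was -2.96 (adjusted p = 2.45e-06, edgeR's quasi-likelihood test), with all 5 *Tlr7* KO mice above all 3 *Ifnar1* KO mice, and it lay between -3.07 and -2.86 with each mouse left out. The difference was -2.96 in the second table as well.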

How the results depend on the processing

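The *Mup4* log2 fold change in *Tlr7* KO kept its direction but lost its call under RLE factors (0.64), library size only (0.16), the gland epithelial factor (0.71), filterByExpr (0.62), no filter (0.63), the second table (0.54) and a replicate block (0.67), and with mice left out it ranged from 0.52 to 0.73. In *Ifnar1* KO against WT it was called by DESeq2 (0.58) and by 1 fit of all mice (0.59), was 0.30 with library size only and ranged from 0.43 to 0.67 with mice left out. Between the KO groups its sign turned with library size only (0.14), and it ranged from -0.20 to 0.021 with mice left out. *Mup5* ranged from -1.56 to 1.03 in *Tlr7* KO against WT (reversed without WT 2) and from -2.86 to -0.83 between the KO groups. DESeq2 gave no p for *Mup5* in *Tlr7* KO against WT.

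Set against the summed counts of all other genes except the 10 most abundant, a sum that does not hold *Mup4* itself, *Mup4* was 1.39 percentage points higher in *Tlr7* KO than in WT (exact permutation p = 0.0357). On the same measure it was 1.95 points higher in *Ifnar1* KO than in WT (exact permutation p = 0.2). It was 0.556 points higher in *Ifnar1* KO than in *Tlr7* KO (exact permutation p = 0.607). With mice left out the difference in *Mup4* share ranged from 0.0454 (without WT 2) to 0.839 (without WT 1) percentage points in *Tlr7* KO against WT, from 0.439 (without *Ifnar1* KO 2) to 1.27 (without WT 1) in *Ifnar1* KO against WT and from 0.0098 (without *Ifnar1* KO 2) to 0.799 (without *Ifnar1* KO 3) between the KO groups. The *Mup5* share differed by -0.000967 percentage points between the KO groups in the second table (exact permutation p = 0.0357). With mice left out it ranged from -0.00229 to 0.000192 in *Tlr7* KO against WT and from -0.000869 to -0.000383 between the KO groups, and the log2 ratio of *Mup5* to *Mup4* from -1.57 to 0.31 and from -2.96 to -1.0. In *Ifnar1* KO against WT they ranged from -0.00286 (without WT 1) to -0.000377 (without WT 2) and from -3.73 (without *Ifnar1* KO 3) to -1.62 (without WT 2). Without *Ifnar1* KO 3 the *Mup5* share and ratio tests between the KO groups reached the smallest p they can give, 0.0476. The cause was not tested for any of these shifts.

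Against WT, replicate numbers did not pair the mice (same-number correlations of deviations from -0.44 to 0.030, different-number from -0.29 to 0.38). Between the KO groups the same-number values ran from 0.064 to 0.34 and the different-number values from -0.34 to 0.068. Whether replicate numbers pair the KO mice was not tested. The replicate block left 14, 0 and 502 calls in place of 4566, 2677 and 250. For the 0 there were 3787 genes at an unadjusted p under 0.05. Other counts that moved by over 1.5 times were 1339 (library size only) and 5124 (all mice in 1 fit) in *Ifnar1* KO against WT, and 577 (DESeq2) and 93 (all mice in 1 fit) between the KO groups. With mice left out the counts ranged from 2602 (without WT 3) to 6664 (without WT 2), from 0 (without *Ifnar1* KO 1 or 3) to 4666 (without WT 2), and from 85 (without *Tlr7* KO 1) to 877 (without *Ifnar1* KO 2). For the count of 0 there were 4383 and 3778 genes at an unadjusted p under 0.05. Calls were 2135 higher and 2431 lower in *Tlr7* KO against WT, 942 and 1735 in *Ifnar1* KO against WT and 121 and 129 between the KO groups. With library size only they were 123 and 4275, 51 and 1288, and 118 and 52.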
